A study of Mus musculus with 28 samples.

Results

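Of the 10 named genes of the Lin28 and let-7 axis 9 had a probe set on the arrays: Lin28a, Lin28b, Hmga2, Igf2bp1, Igf2bp3, Trim71, Arid3a, Arid3b and Mycn. Igf2bp2 was not analysed here because no probe set carries its symbol in the platform table used. The members were taken by gene symbol, and where a gene had more than 1 probe set the one with the highest mean over the 28 arrays was used, which applied to Igf2bp1. All 9 genes lay above the expression filter, a mean of 6.42 on the log2 scale, so they are 9 of the 13956 genes tested and of the 19938 gene symbols measured.

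The arrays measured RNA of mouse embryonic stem (ES) cells. Dicer is the RNase that cuts microRNA precursors, and its loss removes most mature microRNAs. The parental groups carried no vector: the line labelled Dicer WT (2 arrays) and the Dicer-/- line (3 arrays). All other groups were the Dicer-/- line carrying a transgene, so every transgene group shared the deletion. These groups were eGFP (3 arrays), wild-type DICER1 (6 arrays) and DICER1 with 1 of 5 substitutions: D1709A (4 arrays), D1709N (2), E1705K (3), D1810Y (3) and E1813Q (2). The vector was pLD-puro-ENvA for eGFP, D1709A, E1705K, D1810Y and wild-type DICER1 arrays 1 to 4, and pLD-puro-PGKnvA for D1709N, E1813Q and wild-type DICER1 arrays 5 and 6. D1709N and E1813Q were therefore measured only with the PGKnvA vector, and eGFP only with the ENvA vector. The sources used here give no clone numbers, passages or promoters and do not say that replicates were separate cultures. The p-values therefore rest on a spread between arrays that may be technical.

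As background, LIN28A and LIN28B are RNA-binding proteins that hold let-7 precursors, through the loop between the arms, and block their maturation. Mature let-7 in turn silences messenger RNAs that pair with its seed, and Lin28a and Lin28b are themselves among its reported targets, so that the pair forms a loop of mutual repression. In ES cells Lin28 is high and mature let-7 is low, and let-7 rises as cells differentiate. The other members are widely reported let-7 targets: the chromatin protein HMGA2, the mRNA-binding proteins IGF2BP1 and IGF2BP3, the ubiquitin ligase and RNA-binding protein TRIM71, the DNA-binding proteins ARID3A and ARID3B, and the transcription factor MYCN. The substituted residues lie in the RNase IIIb domain of DICER1, which cuts the 5p strand free of the precursor. The mature let-7 that silences these targets is a 5p strand.

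The let-7 strands are shown first because these genes are reported let-7 targets, although no let-7 site in their transcripts was examined. RefSeq (GRCm38.p6) lists 11 let-7 and miR-98 strands of this kind for the mouse, and 10 of them have the same seed, bases 2 to 8, printed in capitals; let-7j is the exception. Of the 1679 mature mouse microRNA names in that table, 11 carry that seed. The strands of Mirlet7a-2 and Mirlet7c-1, the 2 hairpins called higher in mutants than in wild-type DICER1 further on, are not printed. The 5 strands below belong to the hairpins called lower there.
let-7f-5p: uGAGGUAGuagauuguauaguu
let-7d-5p: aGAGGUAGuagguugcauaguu
miR-98-5p: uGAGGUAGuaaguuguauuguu
let-7e-5p: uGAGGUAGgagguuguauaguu
let-7i-5p: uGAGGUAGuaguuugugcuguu
On the strand of the transcript, let-7f-5p of Mirlet7f-1 lies at chr13:48537889-48537910 (minus), let-7d-5p at chr13:48536078-48536099 (minus), miR-98-5p at chrX:151913229-151913250 (plus), let-7e-5p at chr17:17830366-17830387 (plus) and let-7i-5p at chr10:122985698-122985719 (minus).

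The hairpins are shown because LIN28 proteins are known to bind the letters GGAG between the arms. Here GGAG was searched on the transcript strand only, between the annotated 5p and 3p strands, and is in capitals where found. Mirlet7f-1 and Mirlet7d hold it 4 bases before the 3p strand, and Mir98 does not hold these letters in that stretch.
Mirlet7f-1: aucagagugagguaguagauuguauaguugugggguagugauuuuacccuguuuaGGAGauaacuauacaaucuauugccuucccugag
Mirlet7d: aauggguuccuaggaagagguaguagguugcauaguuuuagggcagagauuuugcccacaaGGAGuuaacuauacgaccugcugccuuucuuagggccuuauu
Mir98: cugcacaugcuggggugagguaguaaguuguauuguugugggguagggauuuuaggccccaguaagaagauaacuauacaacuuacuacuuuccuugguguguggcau
The hairpins span chr13:48537829-48537917, chr13:48536012-48536114 and chrX:151913214-151913321 (GRCm38.p6). Among the measured let-7 hairpins with both strands annotated, 8 of 9 hold GGAG there, as do 8 of all 11 such let-7 family hairpins in RefSeq, against 52 of all 644 such mouse hairpins (8.1%). A match is a description of letters and not a measured binding site.

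Values are the deposited log2 levels, on which a difference of 1 is a 2-fold difference, and array medians lay between 7.14 and 7.27. All 10 ES cell markers (among them Pou5f1, Nanog and Esrrb) were above the filter level in every group, with group means of the list between 11.99 and 12.34. The 10 fibroblast or feeder markers averaged 6.48 to 6.62 in the Dicer WT, Dicer-null and eGFP groups and 6.91 to 7.21 in the 6 DICER1 groups, with 6 to 8 of 10 above the filter level in each group. The 8 endoderm markers averaged 6.85 to 7.23, the 5 measured neural markers 7.51 in Dicer WT to 8.40 in eGFP, and the 5 primed epiblast markers 8.95 in Dicer WT to 9.87 in D1810Y. Their part in the results below was not tested, and fewer cells of a type cannot be told apart from less RNA per cell.

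The deposited values of some arrays are tied to each other. For every probe set, the arrays numbered 4 in D1709A and in wild-type DICER1 deviated from arrays 1 to 3 of their own groups by the same amount in opposite directions, within 0.000133 log2 units. The means of wild-type DICER1 with the 2 vectors were equal within 7.5e-05. The arrays are thus not independent observations, the p-values are approximate, and the comparison of mutants with wild type is also given within 3 sets: ENvA arrays 1 to 3, ENvA arrays 4, and PGKnvA arrays. "Called" below means a Benjamini-Hochberg adjusted p under 0.05 in limma over all tested genes.

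The 9 genes were split between the Dicer-null and Dicer WT lines. "Loss of Dicer" below names this comparison, in which the deletion cannot be told apart from other differences between the lines. The share called was 57.9% of all tested genes (30.7% higher, 27.2% lower), and 6 of the 9 members were called in the Dicer-null line against Dicer WT: Lin28b, Hmga2, Igf2bp1, Igf2bp3 and Arid3a were higher and Lin28a was lower. At least 2-fold calls made up 6.95% of tested genes, and Lin28a, Hmga2 and Igf2bp3 were among them. The median change of the members was 0.37, against 0.01 for all tested genes. Trim71 (-0.04), Arid3b (0.13) and Mycn (-0.05) were not called.

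Lin28a had the widest range of the 9: its group means spanned 3.17 log2 units, more than 99.6% of tested genes. The arrays read 9.90 and 9.83 in Dicer WT and 7.54, 7.54 and 7.47 in Dicer-null, without overlap. Lin28a was therefore 5.10-fold lower in the null line (log2 change -2.35, SE 0.0952, adjusted p = 1.21e-16).
With the eGFP vector in the null line, Lin28a read 8.17, 8.47 and 8.30. These arrays lay above the null line and below Dicer WT, and the rise of 0.80 (SE 0.0852) over the null line was called at adjusted p = 2.16e-08. This difference arose with no DICER1 in either group.
Wild-type DICER1 arrays ranged from 9.84 through a median of 9.94 to 10.20. They lay above all eGFP arrays, a 3.13-fold difference (log2 change 1.65, SE 0.0797, adjusted p = 5.01e-15), and overlapped Dicer WT, from which they were not called different (0.10, adjusted p = 0.392).

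The DICER1 mutants had the highest Lin28a. D1709A read 10.57, 10.61, 10.52 and, on array 4, 10.25; D1709N read 10.50 and 10.51. E1705K read 10.53, 10.64 and 10.59, D1810Y 10.60, 10.74 and 10.71, and E1813Q 10.39 and 10.46. No mutant array fell into the wild-type DICER1 range, and the closest values were those of the 2 arrays numbered 4. The mean of the 5 mutants was 4.67-fold above eGFP (2.22, adjusted p = 7.29e-18) and 1.49-fold above wild-type DICER1 (0.58, SE 0.0518, adjusted p = 5.93e-10). Ordered by mean, Lin28a ran Dicer-null, eGFP, Dicer WT, wild-type DICER1, E1813Q, D1709A, D1709N, E1705K and D1810Y, and the neighbours from E1813Q upward were not told apart (adjusted p 0.507 to 0.963).

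Lin28b, the paralog of Lin28a, had another order. The 2 Dicer WT arrays read 8.07 and 8.16 and the null arrays 8.59, 8.58 and 8.61, a rise of 0.48 (SE 0.0715, adjusted p = 2.40e-06). The eGFP arrays were the highest of the series at 9.08, 8.83 and 9.04, 0.39 above the null line (adjusted p = 1.63e-05). Wild-type DICER1 arrays were the lowest, from 7.90 through a median of 7.98 to 8.03, all under Dicer WT; that step of -0.14 was not called (adjusted p = 0.0896).
Against eGFP, wild-type DICER1 thus had 2.01-fold less Lin28b (-1.01, SE 0.0599, adjusted p = 2.56e-13) and 3.13-fold more Lin28a. The paralogs moved in opposite directions in this comparison and in the loss of Dicer.
Mutant arrays of Lin28b lay between 8.30 (E1813Q) and 8.69 (D1810Y), above every wild-type DICER1 array and below every eGFP array. The mutant mean was 0.53 above wild type (SE 0.0389, adjusted p = 1.35e-11) and 0.47 below eGFP (change -0.47, adjusted p = 1.25e-07). Between mutants and wild-type DICER1 both paralogs moved the same way.

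**Figure D1:**
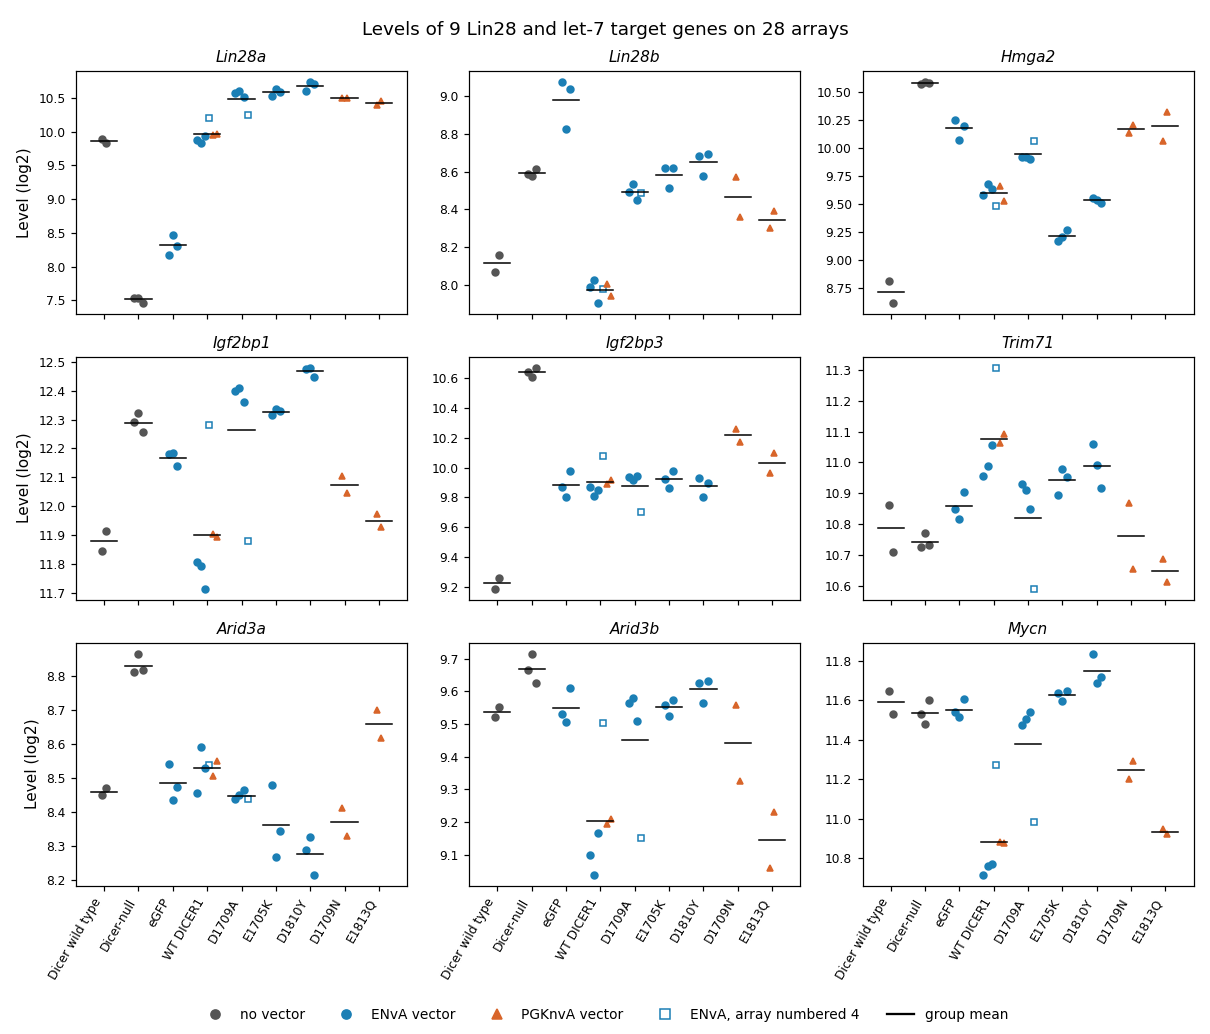
Log2 level (y axes, scaled per gene) of each of the 9 genes in each of the 28 arrays, by group (x axis); points are arrays, coloured by vector, open squares are the arrays numbered 4, and lines are group means. Lin28a is lowest in Dicer-null (mean 7.51) and highest in D1810Y (10.68), Lin28b is lowest in wild-type DICER1 (7.97) and highest in eGFP (8.98), and the open squares stand apart from their groups for Igf2bp1 and Mycn.

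Hmga2, an architectural chromatin protein gene and the classic let-7 target, had the largest rise of the 9 in the null line against Dicer WT. Dicer WT arrays read 8.81 and 8.62 and the null arrays 10.57, 10.59 and 10.58, a 3.65-fold difference (1.87, SE 0.0734, adjusted p = 6.87e-17). The eGFP arrays read 10.26, 10.08 and 10.20, 0.40 below the null line (change -0.40, adjusted p = 1.35e-05). Wild-type DICER1 ranged from 9.49 through 9.61 to 9.68. Its arrays lay under all eGFP arrays (-0.58, SE 0.0614, adjusted p = 9.18e-09) and above both Dicer WT arrays (0.88, adjusted p = 8.50e-11), so wild-type DICER1 left Hmga2 1.84-fold above the level of the Dicer WT line.

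Igf2bp3, whose protein binds and stabilises mRNAs in fetal tissue, was 2.66-fold higher in the null line than in Dicer WT (1.41, SE 0.0748, adjusted p = 2.20e-14). Its arrays read 9.19 and 9.26 in Dicer WT and 10.64, 10.60 and 10.67 in the null line. With eGFP alone it read 9.87, 9.80 and 9.98, 0.75 below the null line (change -0.75, adjusted p = 9.58e-10). Wild-type DICER1 (9.81 to 10.08) overlapped eGFP and differed from it by 0.02 (SE 0.0625, adjusted p = 0.809). The step down from the null line was thus present in the eGFP arrays, which carry no DICER1.

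Igf2bp1 rose by 0.41 with loss of Dicer (SE 0.120, adjusted p = 0.00488), from 11.85 and 11.91 to 12.29, 12.32 and 12.26. The eGFP arrays, at 12.18, 12.18 and 12.14, were 0.12 lower (change -0.12), which was not called. Wild-type DICER1 ran from 11.71 through 11.85 to 12.28, and the highest of these values was array 4. Its mean was 0.27 below eGFP (change -0.27, SE 0.10, adjusted p = 0.0235), and 0.40 below without both arrays numbered 4 (change -0.40, adjusted p = 1.09e-13). In single-array omissions the call was lost without eGFP array 1 or 2, or wild-type array 1, 2 or 3, with changes between -0.40 and -0.21 over all omissions.

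Mycn, a MYC-family gene highly active in ES cells, read 11.65 and 11.53 in Dicer WT, 11.53, 11.48 and 11.60 in the null line and 11.54, 11.51 and 11.61 in eGFP. These 3 groups overlapped. Wild-type DICER1 arrays ran from 10.72 through 10.82 to 11.27 and lay under all of them, 1.59-fold below eGFP (-0.67, SE 0.106, adjusted p = 5.56e-06) and 1.64-fold below Dicer WT (-0.71, adjusted p = 1.99e-05). The Dicer WT line, which has its own Dicer, overlapped the null line at Mycn. Arrays below the lowest null value of 11.48 occurred only in groups with a DICER1 transgene, but not in all of these. E1705K (11.59 to 11.65) and D1810Y (11.69 to 11.84) held none. The cause was not tested.

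The group means of Trim71, Arid3a and Arid3b spanned 0.43, 0.55 and 0.52 log2 units. Trim71, the mouse lin-41 gene, was highest in wild-type DICER1 (mean 11.08) and lowest in E1813Q (10.65). Arid3a was highest in the null line (8.83) and rose by 0.37 with loss of Dicer (adjusted p = 8.84e-06), and the eGFP mean lay 0.35 below the null line (change -0.35, adjusted p = 7.94e-06). Arid3b was lower with wild-type DICER1 (mean 9.20) than with eGFP (9.55) by 0.35 (change -0.35, adjusted p = 0.00187), and in D1810Y it returned to 9.61.

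Over the vector control, 47.6% of tested genes were called in eGFP against the null line (20.2% higher, 27.4% lower), and of the members 5 of 9: Lin28a and Lin28b higher, Hmga2, Igf2bp3 and Arid3a lower. Without both arrays numbered 4, which are in neither group but add to the estimated spread, 8 of 9 were called, beside 54.3% of all tested genes. With wild-type DICER1 against eGFP, 59.5% of tested genes were called (30.8% higher, 28.7% lower); 7 of 9 members were called, Lin28a and Trim71 higher and Lin28b, Hmga2, Igf2bp1, Arid3b and Mycn lower. Calls of at least 2-fold were 3.73% of tested genes, and of the members only Lin28a and Lin28b had them. The Trim71 call (0.22) was lost without wild-type array 4 alone, but was kept without both arrays numbered 4 (0.14, adjusted p = 0.00727). The median member change was -0.27 against 0.02 for all tested genes, with 2 members not called. Against Dicer WT, wild-type DICER1 had 52.9% of tested genes called (28.1% higher, 24.8% lower) and 5 of 9 members: Hmga2 (0.88), Igf2bp3 (0.68) and Trim71 (0.29) were higher, Mycn (-0.71) and Arid3b (-0.33) lower. These comparisons share the eGFP and wild-type DICER1 arrays, so their changes are not independent of each other. Without Dicer WT array 2, 3 of 9 members were called in the last one, and Trim71 and Arid3b were not. Without both arrays numbered 4, Igf2bp1 was called lower in that comparison (-0.11, adjusted p = 0.00334).

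**Figure D2:**
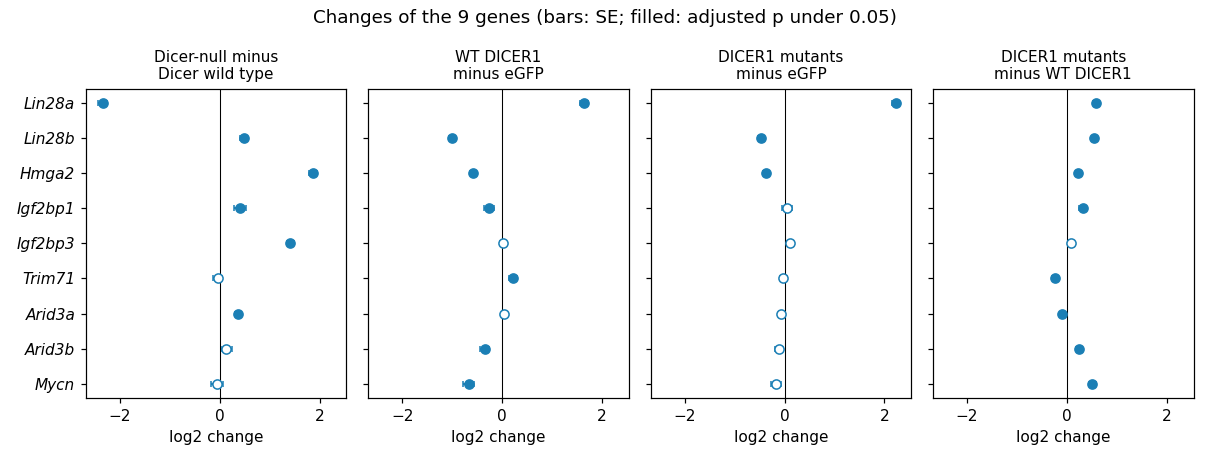
Log2 change (x axes) of the 9 genes (y axis) in 4 comparisons; bars are standard errors from limma and filled points have an adjusted p under 0.05. Lin28a is at -2.35 with loss of Dicer and at 2.22 in the mutants against eGFP, and the changes between mutants and wild type lie between -0.24 and 0.58.

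Against eGFP the mutants were called different at fewer members than wild-type DICER1 was; the 2 counts share the eGFP arrays and their difference was not tested. Of all tested genes 53.1% were called in mutants against eGFP (29.3% higher, 23.8% lower), and of the members 3 of 9: Lin28a higher, Lin28b and Hmga2 lower. Lin28a alone of the 9 was changed at least 2-fold, against 2.46% of tested genes. Igf2bp1 (0.05), Arid3b (-0.11) and Mycn (-0.17) were not called here, and each was lower in wild-type DICER1 than in eGFP. Without both arrays numbered 4, 5 of 9 were called, Arid3b (-0.13, adjusted p = 0.0172) and Mycn (-0.19, adjusted p = 1.78e-05) being added, beside 59.6% of all tested genes.

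Directly against wild-type DICER1, 60.1% of tested genes were called in the mean of the mutants (32.3% higher, 27.7% lower). Of the members 8 of 9 were called: Lin28a (0.58), Lin28b (0.53), Mycn (0.51), Igf2bp1 (0.32), Arid3b (0.24) and Hmga2 (0.22) were higher, and Trim71 (-0.24) and Arid3a (-0.11) lower. Igf2bp3 was not called (0.08, adjusted p = 0.0928). The median change was 0.24 against 0.01 for all tested genes, and none of the 9 reached 2-fold.

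The 3 sets of arrays gave these differences unequally. Lin28b was 0.60 higher in mutants on ENvA arrays 1 to 3, 0.51 on ENvA arrays 4 and 0.43 on PGKnvA arrays. Lin28a was higher by 0.73, 0.05 and 0.50 in the same order. Trim71 (-0.06, -0.71, -0.37) and Arid3a (-0.16, -0.10, -0.01) were lower in all 3 sets, so 4 of the 9 genes kept 1 sign, against 45% of tested genes.
The other 5 changed sign between sets. Mycn was 0.88 higher on ENvA arrays 1 to 3 and 0.21 higher on PGKnvA arrays, but 0.29 lower on the arrays numbered 4 (difference -0.29). Igf2bp1 differed by 0.62, -0.40 and 0.11, Arid3b by 0.47, -0.35 and 0.09, and Igf2bp3 by 0.07, -0.38 and 0.22. Hmga2 differed by -0.08, 0.57 and 0.59. The sets hold different mutants, and on the arrays numbered 4 only D1709A. D1709A alone was above wild type at Hmga2 both on arrays 1 to 3 (0.28) and on array 4 (0.57).
On the arrays numbered 4, the D1709A value lay below the wild-type value for Mycn (10.98 and 11.27) and for Igf2bp1 (11.88 and 12.28), the reverse of arrays 1 to 3, where the means were 11.51 and 10.75 for Mycn and 12.39 and 11.77 for Igf2bp1. With each set taken as 1 observation, limma called 0 of the 13956 genes with its variance trend and 154 without it; at an unadjusted p under 0.05 there were 3192 genes, among them the members Lin28a, Lin28b and Trim71. Without both arrays numbered 4, all 9 members were called between mutants and wild type, Igf2bp3 included (0.13, adjusted p = 3.50e-04), beside 64.7% of all tested genes.

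**Figure D3:**
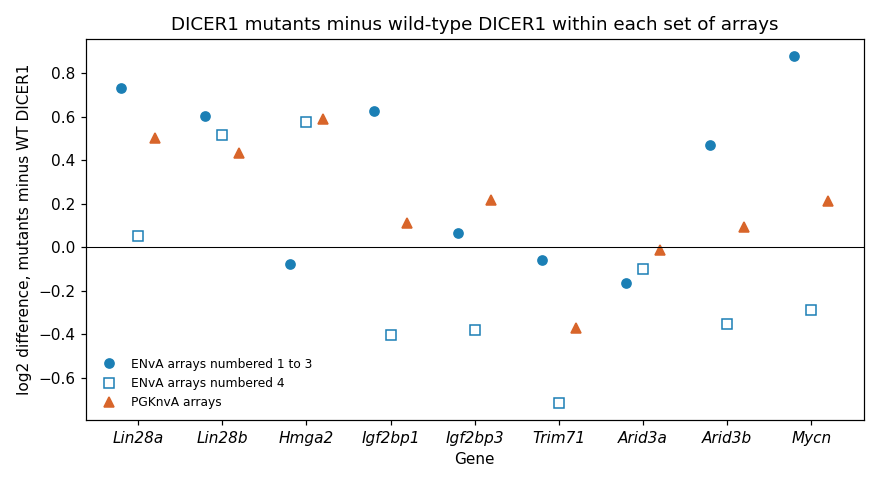
Difference in log2 level between DICER1 mutants and wild-type DICER1 (y axis) for each gene (x axis) within ENvA arrays 1 to 3, ENvA arrays 4 (1 mutant and 1 wild-type array) and PGKnvA arrays. Lin28b lies between 0.43 and 0.60 in all 3 sets, and Mycn runs from -0.29 to 0.88.

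Among the mutants, Hmga2 differed most. E1705K read 9.17, 9.20 and 9.27, D1810Y 9.55, 9.54 and 9.51, D1709A 9.92, 9.92, 9.90 and 10.06, D1709N 10.13 and 10.21, and E1813Q 10.06 and 10.33. E1705K lay below all wild-type DICER1 arrays and D1709A, D1709N and E1813Q above them. The F test over the 5 mutants called Hmga2 (adjusted p = 5.72e-09), Arid3a (0.00123) and Mycn (0.00316); it called 43.5% of tested genes.
The mutant mean of Hmga2 therefore joined opposite changes: against wild type, E1705K was -0.38 (adjusted p = 1.32e-05), D1810Y -0.06 (adjusted p = 0.418), D1709A 0.35 (1.42e-05), D1709N 0.58 (3.36e-06) and E1813Q 0.60 (1.87e-06). Within the 3 ENvA mutants alone Hmga2 still differed (adjusted p = 8.56e-09).
Mycn ran the other way, with means of 11.75 in D1810Y, 11.63 in E1705K, 11.38 in D1709A, 11.25 in D1709N and 10.93 in E1813Q. E1813Q arrays, at 10.95 and 10.92, lay within the wild-type range only through wild-type array 4 (11.27). They lay above all other wild-type arrays, of which the highest read 10.88.

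The PGKnvA mutants differed from the ENvA mutants, relative to wild-type DICER1 with the same vector, at Hmga2 (ENvA minus PGKnvA -0.62, SE 0.0844, adjusted p = 3.26e-05) and Mycn (0.49, SE 0.146, adjusted p = 0.0216). That test called 18.0% of tested genes. Because the wild-type means with the 2 vectors were equal within 7.5e-05 in the deposited values, the wild-type reference took out almost nothing. The differences are thus those of the plain mutant means, 9.57 (ENvA) and 10.18 (PGKnvA) for Hmga2, and no vector effect was estimated. The substitutions and the vectors cannot be told apart here, since no substitution was measured with both vectors. The nearest pair is D1709A and D1709N, which change the same residue: Hmga2 was at 0.35 and 0.58, Lin28a at 0.53 and 0.54 and Lin28b at 0.52 and 0.49 against wild type with the respective vector.

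By mutant, the members called against wild-type DICER1 were 7 of 9 in D1709A (45.8% of tested genes), 6 in D1709N (40.0%), 7 in E1705K (48.0%), 6 in D1810Y (53.7%) and 4 in E1813Q (40.6%). Lin28a and Lin28b were higher in each of the 5, by 0.46 (E1813Q) to 0.72 (D1810Y) and by 0.37 (E1813Q) to 0.68 (D1810Y). Igf2bp1 and Arid3b were called higher in the 3 ENvA mutants, by 0.36 to 0.57 and 0.25 to 0.41, and were not called in the PGKnvA mutants. There Igf2bp1 was at 0.18 in D1709N and 0.05 in E1813Q (SE 0.131), and Arid3b at 0.24 and -0.06 (SE 0.119). Without both arrays numbered 4, both genes were called in D1709N, at the same changes (adjusted p = 6.57e-05 and 0.00212). Trim71 was called lower in D1709A (-0.26), D1709N (-0.31) and E1813Q (-0.43). Arid3a was called lower in E1705K (-0.17) and D1810Y (-0.25), and Igf2bp3 was called only in D1709N (0.31). The Trim71 call in D1709A was lost without both arrays numbered 4, where the change was -0.10 (adjusted p = 0.0558). Some of these calls rested on 1 array: Arid3b in D1709A was lost without D1709A array 1 or 2 or wild-type array 1 or 2, Trim71 in D1709N without D1709N array 2 or wild-type array 6, and Arid3a in E1705K without E1705K array 2. The Mycn call in D1709N (0.37) was lost without either D1709N array or either wild-type PGKnvA array. Whether calls present in 1 mutant and absent in another differ was tested by the F test above, which called none of Lin28a, Lin28b, Igf2bp1, Igf2bp3, Trim71 and Arid3b. Its adjusted p was near the threshold for Lin28b (0.0522) and Igf2bp3 (0.0598). Its spread includes the arrays numbered 4, and no F test without them is given here. Without them Igf2bp1 was at 0.70 (SE 0.0276) in D1810Y and 0.05 (SE 0.0338) in E1813Q. The missing calls therefore do not show that the mutants are alike at these genes.

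**Figure D4:**
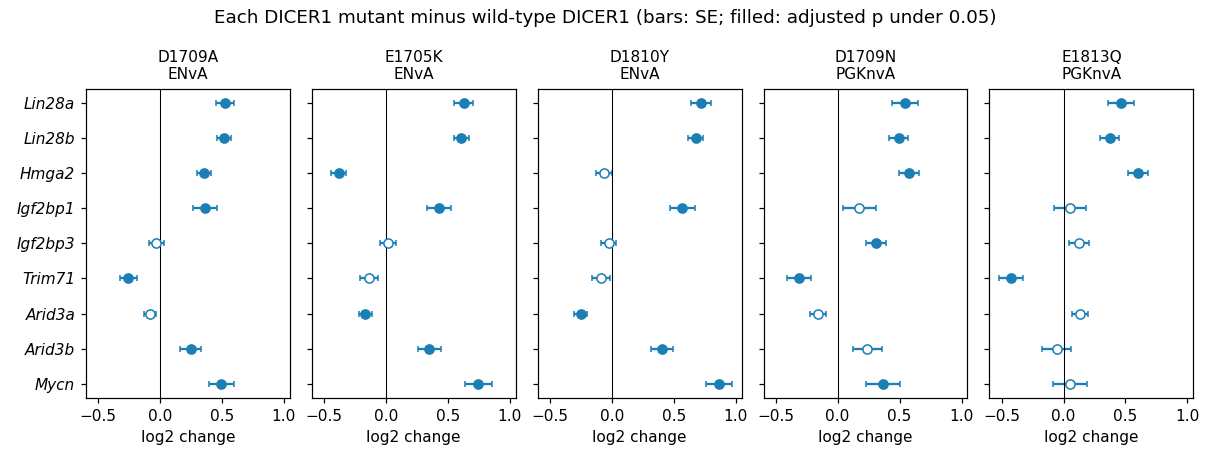
Log2 change (x axes) of the 9 genes (y axis) in each DICER1 mutant against wild-type DICER1, with the vector of the mutant; bars are standard errors from limma and filled points have an adjusted p under 0.05. Lin28a and Lin28b lie to the right of 0 in all 5 panels, while Hmga2 runs from -0.38 in E1705K to 0.60 in E1813Q.

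The array has 10 probe sets that name 1 let-7 family hairpin each. Probes for a hairpin can read the primary transcript as well as the precursor and do not measure the mature strands printed above. On average 4 of the 10 lay above the filter level (Mirlet7d, Mirlet7e, Mirlet7i and Mir98), and their values here come from a fit with no filter. In the null line against Dicer WT, 5 of 10 were called lower and 0 higher, in a background of 42.2% called; Mirlet7d was at -1.16.
With eGFP against the null line, 5 were called higher (34.3% of genes called), Mir98 by 0.46 among them. Of these, Mirlet7f-1 and Mirlet7a-1 had means under the filter level in both groups, and Mir98 in the null line (6.06). With arrays centred on their medians, the calls of Mirlet7d (adjusted p = 0.0565) and Mirlet7f-1 (0.0540) were lost. Each was also lost in 3 single-array omissions.

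Mirlet7f-1 separated wild-type DICER1 from all other groups. Its wild-type DICER1 arrays ranged from 6.82 through 6.99 to 7.07. The eGFP arrays read 5.31, 5.82 and 5.86, and the 14 mutant arrays lay between 5.57 and 6.14. Dicer WT read 6.35 and 6.62, and the null line 5.08, 5.31 and 5.37. No array of another group reached the wild-type DICER1 range, including the Dicer WT line. All eGFP, null and mutant arrays lay under the filter level of 6.42, where signal is near background, so the sizes of differences from these groups are uncertain. In the deposited values wild-type DICER1 was 1.29 above eGFP (SE 0.132, adjusted p = 5.04e-09) and the mutants were 1.10 below wild type (change -1.10, SE 0.0857, adjusted p = 3.29e-11).
The difference between mutants and wild type had 1 sign in the 3 sets of arrays: -1.09, -0.98 and -1.13. Mirlet7d gave -0.65, -0.45 and -0.52, and Mir98 -0.65, -0.45 and -0.98. With wild-type DICER1 against eGFP, Mir98 was 0.87 higher (adjusted p = 2.52e-07) and Mirlet7d 0.44 higher (adjusted p = 1.37e-04), where 4 hairpins were called higher and 1 lower (44.2% of all genes without the filter).
In mutants against eGFP 0 were called higher and 1 lower (39.4%), and in mutants against wild type 2 were called higher and 5 lower (46.1%). The 5 lower were Mirlet7f-1, Mir98, Mirlet7d, Mirlet7i (-0.25) and Mirlet7e (-0.24). Their mature strands share the seed printed above, but so do let-7a-5p and let-7c-5p, so the seed does not set the lower hairpins apart. The 2 higher, Mirlet7a-2 and Mirlet7c-1, had group means of at most 4.63. These and the Mirlet7f-1 values of the mutants lay under the filter level. The other 4 lower hairpins averaged above it over all arrays, but the Mir98 mean in E1813Q (6.27) was under it.

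**Figure D5:**
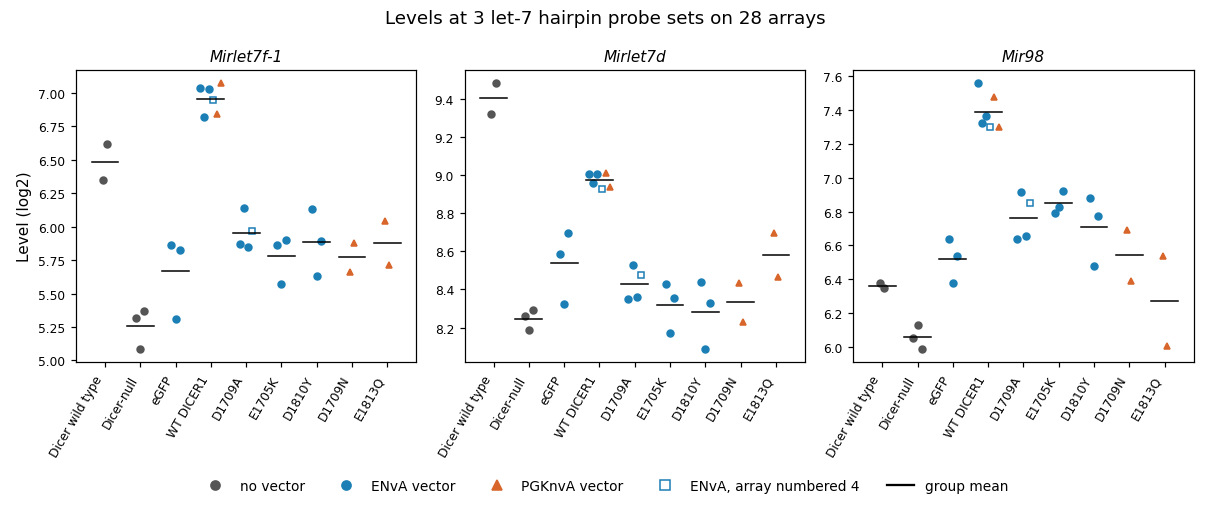
Log2 level (y axes, scaled per hairpin) at the probe sets of 3 let-7 family hairpins in each of the 28 arrays, by group (x axis); points are arrays, coloured by vector, open squares are the arrays numbered 4, and lines are group means. At Mirlet7f-1 the 6 wild-type DICER1 arrays (6.82 to 7.07) lie above every other array.

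Of 32 other reported let-7 targets, 28 had a probe set and 25 were tested. In the null line against Dicer WT 10 were higher, 4 lower and 11 not called, which is near the 57.9% called of all tested genes; the cyclin genes Ccnd2 (2.45) and Ccnd1 (1.03) and the insulin signalling adaptor gene Irs2 (1.04) were higher, and the insulin receptor gene Insr was lower (-1.14). With wild-type DICER1 against eGFP 8 were higher and 11 lower (59.5% of all tested genes called): Ccnd2 was at -2.09, Ccnd1 at -1.23 and Lrig3 at -0.92, while Myc was at 1.39 and Insr at 1.09. In eGFP against the null line 6 were higher and 10 lower (47.6%). In mutants against eGFP the counts were 8 higher and 7 lower (53.1%), with Myc (1.42) and Insr (1.15) again high and Ccnd2 at -1.06.
Against wild-type DICER1 the mutants had 12 of 25 higher and 5 lower (60.1%), with Ccnd2 (1.03), Ccnd1 (1.02) and Lrig3 (0.77) higher and the transcriptional repressor gene Bach1 (-0.56) and the TGF-beta receptor gene Tgfbr1 (-0.31) lower. The list medians, 0.02 for loss of Dicer, -0.0030 for wild-type DICER1 and 0.09 for mutants against wild type, stood beside 0.01, 0.02 and 0.01 for all tested genes. By their means, Ccnd1, Ccnd2 and Lrig3 followed the order of Lin28b in these groups, high in eGFP, low in wild-type DICER1 and in between in the mutants, and Myc did not.

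Genes of let-7 maturation and decay were measured as a second list of 19, of which 17 were tested. In the null line against Dicer WT 7 were higher and 4 lower, beside 57.9% called of all tested genes. The Argonaute gene Ago1 was at 1.22. The terminal uridylyltransferase gene Tut4, whose product tails let-7 precursors held by LIN28A, was at -0.67. Dis3l2, the exonuclease that degrades the tailed precursor, was at -0.33. In eGFP against the null line 4 were higher and 7 lower (47.6% of all tested genes). With wild-type DICER1 against eGFP 1 was higher, Tut7 (0.37), and 7 were lower (59.5%), Ago1 (-0.80) and the RNA-binding protein gene Msi1 (-0.35) among them. In mutants against eGFP 0 were higher and 4 lower at the adjusted p (53.1%). Against wild type 9 were higher, with Tarbp2, a Dicer partner, at 0.28, and 2 were lower, Tut7 (-0.36) and Syncrip (-0.24), beside 60.1% of all tested genes. In the 3 sets of arrays Tarbp2 changed sign (0.53, -0.35 and 0.11), while Tut7 (-0.50, -0.10 and -0.23) and Syncrip (-0.03, -0.52 and -0.44) were lower in each. On ENvA and untransduced arrays only, the Syncrip call was lost (-0.11, adjusted p = 0.0615).

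The genes most like each member were taken by Pearson's r over the 9 group means, among 13090 tested genes with a standard symbol. For Lin28a they were Hbs1l (r = 0.991), Egfl7 (0.990) and Dnmt3l (0.986). Over the 28 arrays Dnmt3l, a cofactor of de novo DNA methylation, came first (0.984), and its group means spanned 8.69 to 12.16. For Lin28b, Smpdl3b was high by both measures (0.962 over groups, 0.957 over arrays), for Hmga2 Atxn1 was (0.981 and 0.954), and for Igf2bp3 Hk2 was (0.961 and 0.918). These are descriptions over points that share arrays and controls, and the rank-1 gene of Mycn over groups, Dand5 (0.989), reached 0.656 over arrays.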

How the data were processed

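The 28 Affymetrix Mouse Gene ST arrays were hybridised with total RNA (Qiagen miRNeasy), which had been labelled by the Ambion WT expression kit, per the labels' protocols. The authors deposited log2 values of 35556 probe sets, made by RMA in Partek 6.6 per the submitters' processing notes; its settings were not given in the sources used here. Of the probe sets, 21789 had 1 gene symbol in the platform table, 1621 several and 12146 none. Values were used as deposited, 1 probe set a gene, and genes with a mean above the 30th percentile (6.42) were tested. Limma 3.58.1 in R 4.3.3 fitted 9 group means and a PGKnvA term on all arrays, with a variance trend (18 residual degrees of freedom) and Benjamini-Hochberg adjustment. The ties between arrays leave fewer independent values than these degrees of freedom count. They also hold the PGKnvA term near 0, so leaving it out can alter standard errors but hardly the changes. The mean of the mutants weights the 5 groups equally. The script was tested on simulated data. Precision rests on 2 to 6 arrays a group, and no depth applies to arrays.

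The members and lists were chosen with earlier results of these data known. Named genes are the members, up to 3 called genes each way per comparison from the lists of other let-7 targets and of let-7 maturation and decay, and the let-7 hairpins, whose 3 examples were chosen after their values were seen. Alternatives covered the filter, vector term, variance trend, centring, probe set, vector, the weighting of the mutants, array sets, a replicate block and single arrays left out. Microarray probes give no measure of mature microRNAs. Sequences are RefSeq's for GRCm38.p6; the deposited table names no genome build, so no gene positions are given. Figures were drawn with matplotlib 3.10.9.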

Additional observations from a re-analysis of the deposited data

Results flagged for a closer look

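In the 2 groups of 4 to 6 arrays, the array farthest from its group was tested for its gap to the nearest other array as a share of the group's range (Dixon's ratio). Chance flags about 1 in 20 such groups; 9 of 18 tests passed here, all at arrays numbered 4. In D1709A the ratios were 0.865 for Hmga2 (array 4 at 10.06), 0.91 for Igf2bp1 (11.88), 0.902 for Igf2bp3 (9.70), 0.838 for Arid3b (9.15) and 0.88 for Mycn (10.98). In wild-type DICER1 they were 0.651 for Lin28a (10.20), 0.668 for Igf2bp1 (12.28), 0.634 for Arid3b (9.50) and 0.703 for Mycn (11.27). Since the deviations of these 2 arrays mirror each other exactly, the ratios in both groups are not separate observations. The genes that differed between ENvA and PGKnvA mutants, relative to wild type, in the test of that difference, were Hmga2 (-0.618) and Mycn (0.492).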

How the results depend on the processing

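Apart from single-array omissions, 3 counts of members called changed by over 1.5 times. Without both arrays numbered 4 (added after seeing the data), 5 were called in mutants against eGFP and 8 in eGFP against the null line. With each array set as 1 replicate, 0 were called in mutants against wild type, with only 3 observations. Omitting single arrays gave 3 to 5 called in wild-type DICER1 against Dicer WT, and moved no other count by over 1.5 times. Of 1539 other values under all settings apart from single-array omissions, 1474 kept their direction and side of the threshold. The call was lost by 29 and gained by 18, and 18 turned sign. Of 4704 under omissions, 4644 kept both. The sign turned in the cases that follow, of which only Hmga2 had been called. On ENvA arrays the Hmga2 mean lacks D1709N (0.58) and E1813Q (0.60), the mutants farthest above wild type. The cause of the other turns was not tested. With ENvA and untransduced arrays only: Hmga2 -0.030 and Igf2bp3 -0.012 in mutants against wild type, Mycn 0.030 and Trim71 0.060 in mutants against eGFP. With arrays centred on their medians: Igf2bp3 0.0013 in D1709A against wild type and -0.015 in wild-type DICER1 against eGFP, Mycn 0.027 and Trim71 0.037 in Dicer-null against Dicer WT, and Mycn -0.042 in eGFP against null. With the other Igf2bp1 probe set: -0.15 in mutants against eGFP, -0.10 in E1813Q against wild type, 0.17 in eGFP against null, and -0.058 in wild-type DICER1 against Dicer WT. Without both arrays numbered 4: Igf2bp1 -0.11 in wild-type DICER1 against Dicer WT, which was then called (adjusted p = 0.00334). In the same setting Igf2bp3 was 0.087 in D1709A and 0.032 in D1810Y against wild type and -0.038 in wild-type DICER1 against eGFP. With each array set as 1 replicate, Igf2bp3 was -0.031 in mutants against wild type.
Omissions turned 16 signs, all of uncalled changes. Their ranges were -0.14 to 0.029 for Arid3b in E1813Q against wild type; -0.0030 to 0.074 for Igf2bp1 in mutants against eGFP and -0.11 to 0.081 in wild-type DICER1 against Dicer WT. For Igf2bp3 they were -0.059 to 0.029 in D1709A, -0.056 to 0.032 in D1810Y and -0.012 to 0.077 in E1705K against wild type, and -0.038 to 0.067 in wild-type DICER1 against eGFP. For Mycn they were -0.11 to 0.0052 in Dicer-null against Dicer WT and -0.013 to 0.049 in eGFP against null, and for Trim71 -0.12 to 0.034 in Dicer-null against Dicer WT.
Replicate numbers paired the samples only in part: 20 of 88 same-numbered pairs deviated together at r over 0.1 (range -1 to 0.684). Arrays of those pairs shared some of their deviation and are not fully independent. The fit with the replicate block, without the vector term because numbers 5 and 6 occur in 1 group, changed no call of the members; Lin28a in mutants against wild type kept 0.58. Centring moved the median of all genes by at most 0.08, but the split of all called genes in Dicer-null against Dicer WT went from 4283 higher and 3792 lower to 5233 and 2893, and in eGFP against null from 2822 and 3823 to 2152 and 4897. Hairpins under the filter level have signal near background, which limits their values.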
